A study of Rattus norvegicus with 4 samples.

Results

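The integrated stress response and the unfolded protein response were examined through 10 genes, Atf3, Atf4, Ddit3, Chac1, Trib3, Asns, Ppp1r15a, Hspa5, Xbp1 and Herpud1, in rat oligodendrocyte precursor cells (OPCs) in which the receptor gene Gpr17 had been silenced. The genes were taken as those whose transcript accession on the array belongs to this list of names. All 10 have a probe, 1 each, among 11656 genes with a tested probe and a symbol, and all 10 probes were well above background on all 4 arrays. OPCs came from pooled cerebral cortices of Sprague-Dawley rats at postnatal day 2 and were expanded with PDGF and bFGF. At the switch to differentiating medium with thyroid hormone, the siGPR17 group received 50 nM of a siRNA pool against rat Gpr17 and the siNEG group a non-targeting RNA pool, both by lipofection, and RNA was taken 48 h later, at day in differentiation 2. Each group has 2 samples, with 1 sample on each one-color Agilent array. Since both groups were transfected, every difference below is relative to transfected OPCs and not to untouched cells. Silencing was partial and acted on bulk cultures, in which fewer cells of a type and less RNA per cell cannot be told apart.

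The integrated stress response starts when kinases that sense ER stress, amino acid shortage, double-stranded RNA or heme shortage phosphorylate the translation factor eIF2alpha. Most protein synthesis then slows, while the mRNA of Atf4 is translated more, and the ATF4 protein turns on genes of amino acid supply and, together with CHOP, the product of Ddit3, genes linked to cell death. The unfolded protein response uses the same kinase branch (PERK) and adds the sensors ATF6 and IRE1, which raise chaperones of the ER and splice the mRNA of Xbp1. Oligodendrocytes make large amounts of membrane and secretory pathway proteins while they build myelin, and these responses are known to be active in them in demyelinating disease.

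The regulatory elements for which these genes are known are shown first, with the members whose promoter window held exact ATF4-type or ER stress-type letters. In RefSeq promoters of the assembly GRCr8 (from 250 bases before to 50 after the start of the gene), which hold 9 of the 10 genes but not Atf3, 5 sets of letters were searched on both strands. They were the ER stress response element ERSE (CCAAT, then 9 free bases, then CCACG), the shorter ERSE-II (ATTGG, 1 free base, CCACG), the C/EBP-ATF response element CARE (TGATGNAAN), the cAMP response element CRE (TGACGTCA) and UPRE (TGACGTGG), of which the last 2 share their first bases. Of 33469 promoters, 0.0657% hold ERSE, 0.0508% ERSE-II, 3.97% CARE, 1.83% CRE and 0.595% UPRE. Among the 9 members, ERSE was found in Hspa5 and Xbp1, ERSE-II in Herpud1, CARE in Chac1, Trib3 and Herpud1, CRE in Ppp1r15a, and none of the letters in Atf4, Ddit3 and Asns. The stretches with a match follow, 5′ to 3′ on the strand of the gene, with the matched letters in capitals. None of the matches overlaps another.
Chac1, chr3:126795943-126795991, plus strand, CARE on the opposite strand: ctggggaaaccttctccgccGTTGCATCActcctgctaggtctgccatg
Trib3, chr3:161275534-161275575, minus strand, CARE on the opposite strand: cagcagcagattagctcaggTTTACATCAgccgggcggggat
Ppp1r15a, chr1:105139635-105139682, minus strand, CRE: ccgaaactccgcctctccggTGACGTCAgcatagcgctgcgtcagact
Hspa5, chr3:38452953-38453011, plus strand, ERSE: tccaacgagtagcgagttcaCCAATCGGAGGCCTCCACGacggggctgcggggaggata
Xbp1, chr14:84604538-84604596, plus strand, ERSE: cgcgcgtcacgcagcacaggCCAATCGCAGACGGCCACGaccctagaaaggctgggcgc
Herpud1, chr19:10614801-10614912, minus strand, CARE on the opposite strand, then ERSE-II: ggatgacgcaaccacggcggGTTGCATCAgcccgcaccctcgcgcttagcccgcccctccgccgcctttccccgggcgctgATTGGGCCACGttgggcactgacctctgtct
A match is a run of letters in this window and not a measured binding site. A gene without a match may still hold such an element in other letters or outside the window.

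Signals below are intensities scaled so that the 75th percentile of each array is the same. The arrays correlated across probes with r from 0.992 to 0.996, all 4 shared 1 slide and 1 scan, and siNEG lay in another column of the slide than siGPR17, so that column and treatment cannot be told apart. Gpr17 had signals of 1107 and 1113 in siNEG and of 652 and 639 in siGPR17 OPCs, and the log2 fold change was -0.78 (with a standard error, SE, of 0.08, limma adjusted p = 0.209), so the groups did not overlap. A gene was called changed at a fold of 1.5 with an adjusted p under 0.07, the thresholds of the study, in limma with Benjamini-Hochberg adjustment over 28016 probes. With this rule 0% of the 11656 genes were called, and 0 of the 10 members. Without adjustment, 16.2% of all genes had a p under 0.05 in limma, 7.43% higher and 8.73% lower in siGPR17 OPCs, and 1 of the 10 members did, Asns. A fold of 1.5 in either direction was reached by 5.08% of all tested genes and by 0 of the 10 members. The unpaired t-test, which the methods name for comparing 2 groups in general, gave an adjusted count of 0 genes as well. The paper reports a list of differentially expressed genes at these thresholds but names no test for the arrays. Its own procedure was therefore not repeated here. With 2 against 2 samples an exact permutation test of a single gene cannot give a two-sided p under 0.333.

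Of the transcription factors at the head of the ATF4 and CHOP branch, none was called, where 0% of all tested genes were. Atf4, the factor that carries the response, had signals of 24618 and 27709 in siNEG and of 25469.5 and 23679 in siGPR17 OPCs (probe A_42_P620762). The groups overlapped, and the log2 fold change was -0.09 (SE 0.11, 95% interval -0.39 to 0.21, limma adjusted p = 0.705). The probe of Atf4 is printed in 10 spots on each array, whose SD within an array lay between 0.0152 and 0.0228 on the log2 scale. The replicate arrays differed by 0.171 in siNEG and 0.105 in siGPR17 OPCs, so that the difference between the groups was smaller than that between replicate arrays, and spot noise is smaller than either. Since ATF4 is controlled largely at translation, the array does not measure its protein.

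Ddit3, which encodes CHOP, the factor linked to cell death under lasting stress, had signals of 2497 and 2488 in siNEG and of 2694 and 2742 in siGPR17 OPCs (probe A_64_P059495). On both siGPR17 arrays Ddit3 was higher than on either siNEG array, which 28.1% of all tested genes did, while 25.3% lay below. The replicates were close to each other, 0.0053 apart on the log2 scale in siNEG and 0.026 in siGPR17 OPCs, and the difference was small, with a log2 fold change of 0.12 (SE 0.08, 95% interval -0.11 to 0.36, limma adjusted p = 0.497), or 0.07 with normexp background correction. Atf3, a stress-induced repressor that is also an immediate early gene, had signals of 455 and 453 in siNEG and of 454 and 521 in siGPR17 OPCs (probe A_43_P11616). One siGPR17 array was level with siNEG and the other was higher, so the groups overlapped, and the log2 fold change was 0.10 (SE 0.11, 95% interval -0.20 to 0.40, limma adjusted p = 0.667). Without siGPR17 replicate 2, the change of Atf3 was 0.00068.

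Among the 4 ATF4 and CHOP targets of the 10 genes, Asns had the highest log2 fold change. It encodes asparagine synthetase, the enzyme that makes asparagine and the usual marker of the amino acid response. Its signals were 3867 and 4352 in siNEG and 5483 and 5520.2 in siGPR17 OPCs (probe A_44_P480267, printed in 2 spots). Both siGPR17 arrays were higher than both siNEG arrays, and they differed from each other by 0.0098 on the log2 scale, against 0.171 between the siNEG arrays. The log2 fold change was 0.42 (SE 0.10, 95% interval 0.14 to 0.70), a fold of 1.34, with an unadjusted p of 0.0135 and an adjusted p of 0.226 from limma. The size of this difference lay at the 88.8th percentile of all tested genes. Its adjusted p from limma lay between 0.0579, with the trend and robust option, and 0.720 over the alternatives, and its fold was under 1.5 in all of them.

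Trib3, a pseudokinase that CHOP and ATF4 induce and that restrains ATF4 in turn, had the widest interval of the 10 genes. Its signals were 40.4 and 28.5 in siNEG and 44.7 and 44.1 in siGPR17 OPCs (probe A_64_P117901), where the lowest signal well above background on an array lay between 7.38 and 13.4. The siGPR17 arrays were both higher, but the siNEG arrays were 0.505 apart on the log2 scale. The log2 fold change was 0.39 (SE 0.19, 95% interval -0.14 to 0.92, limma adjusted p = 0.390), or 0.21 with normexp background correction. Leaving out siNEG replicate 2 gave 0.14, and leaving out siNEG replicate 1 gave 0.64, so that the value of Trib3 rests on which siNEG array is used.

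Chac1 encodes an enzyme that breaks down glutathione and is induced by ATF4. It had signals of 249 and 228 in siNEG and of 249.5 and 298 in siGPR17 OPCs (probe A_64_P112406). Its groups were separate only by the last digits of the closest arrays, and the log2 fold change was 0.19 (SE 0.13, 95% interval -0.16 to 0.55, limma adjusted p = 0.495), or 0.07 without siGPR17 replicate 2. Ppp1r15a encodes GADD34, the phosphatase subunit that restores translation by removing the phosphate from eIF2alpha. It had signals of 1315 and 1562 in siNEG and of 1480.3 and 1528 in siGPR17 OPCs (probe A_64_P020938). Both siGPR17 arrays lay between the siNEG arrays, and the log2 fold change was 0.07 (SE 0.12, 95% interval -0.26 to 0.40, limma adjusted p = 0.800).

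**Figure D1:**
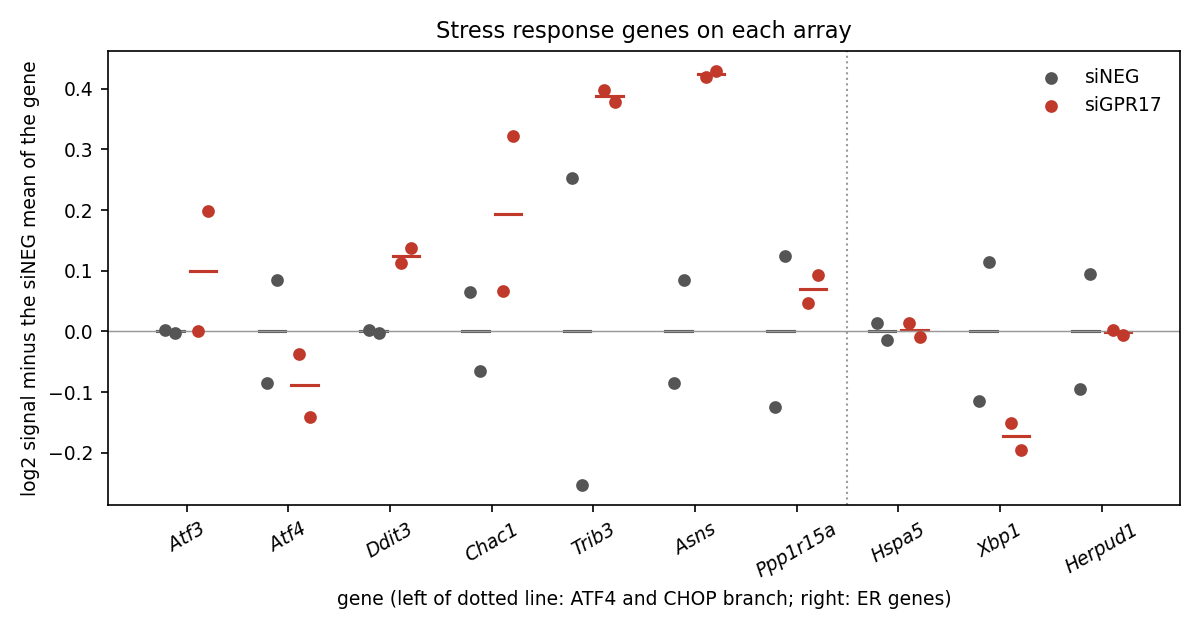
Log2 signal of each gene on each array, relative to the siNEG mean of that gene, with 1 point per array and a bar for the mean of the 2 arrays of a group (siNEG in grey, siGPR17 in red). Asns and Ddit3 show tight siGPR17 points above siNEG, Trib3 has a wide siNEG pair, and the points of Hspa5 and Herpud1 are mixed.

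Of the 3 genes of ER protein handling, none was called, where 0% of all tested genes were. The groups did not overlap for 1 of them, against 53.4% of all tested genes. Hspa5 encodes BiP, the main Hsp70 chaperone of the ER and the standard readout of ER stress. Its signals were 30511 and 29950.4 in siNEG and 30511 and 30027 in siGPR17 OPCs (probe A_44_P1054213, printed in 10 spots, of which 1 was left out on 1 array). The 4 arrays were almost level, and the log2 fold change was 0.0019 (SE 0.08, 95% interval -0.23 to 0.23, limma adjusted p = 0.993). Herpud1 encodes an ER membrane protein that helps to send misfolded proteins to degradation, and its promoter holds both kinds of letters shown above. Its signals were 1722 and 1965 in siNEG and 1844 and 1832 in siGPR17 OPCs (probe A_44_P1047924). Both siGPR17 arrays lay between the siNEG arrays, and the log2 fold change was -0.0013 (SE 0.11, 95% interval -0.29 to 0.29, limma adjusted p = 0.996).

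Xbp1, the factor whose mRNA the sensor IRE1 splices, was the member with the lowest log2 fold change. Its signals were 3176 and 3723 in siNEG and 3099 and 3005 in siGPR17 OPCs (probe A_64_P011894). Both siGPR17 arrays were lower than both siNEG arrays, the nearest of them by little, and the siNEG arrays were 0.230 apart on the log2 scale. The log2 fold change was -0.17 (SE 0.12, 95% interval -0.49 to 0.15, limma adjusted p = 0.498), while leaving out siNEG replicate 2 gave -0.06 and leaving out siNEG replicate 1 gave -0.29. Whether the probe separates the spliced from the unspliced mRNA was not tested.

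With so few arrays, the intervals say more than the p-values about how large a change could have been missed. For 8 of the 10 members the 95% interval from limma lay within a fold of 1.5 in either direction, against 67.6% of all tested genes. The exceptions were Asns, whose interval ran from a fold of 1.10 to 1.63, and Trib3, from 0.905 to 1.89. For Hspa5 the interval ran from 0.852 to 1.18, for Ddit3 from 0.929 to 1.28 and for Atf4 from 0.765 to 1.16. The median standard error was 0.109 on the log2 scale over the members and 0.109 over all tested genes. The intervals rest on limma's spread, which is borrowed across probes, and on samples that the study calls independent.

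**Figure D2:**
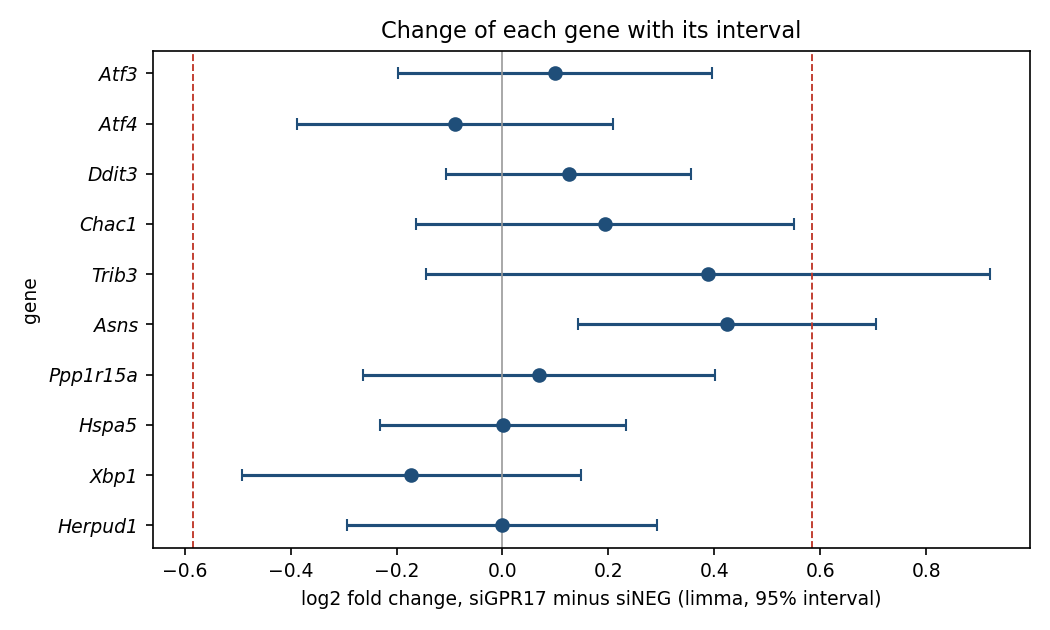
Log2 fold change of each gene (siGPR17 minus siNEG, points) with its 95% interval from limma (bars), the dashed lines marking a fold of 1.5 in either direction. The intervals of Asns and Trib3 cross the upper line, that of Asns alone leaves out 0, and the other 8 stay between the lines.

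By branch, the 7 members of the ATF4 and CHOP branch had a median log2 fold change of 0.12. In siGPR17 OPCs 6 of the 7 were higher, against 52% of all tested genes. Without overlap 4 of the 7 were above and 0 below, against 28.1% and 25.3% of all tested genes. The 3 ER members had a median of -0.0013, with 1 higher and 2 lower. Over the 10 members the median was 0.08, with 7 higher and 3 lower, against a median of 0.0099 and 52% higher over all tested genes. Arrays of 5 of the 10 did not overlap, 4 above and 1 below, and 53.4% of all tested genes did not overlap, so the share among the members is near the background. Relative to the siNEG mean, the median of the ATF4 and CHOP members was 0.07 and 0.20 on the siGPR17 arrays and 0.0024 and -0.0024 on the siNEG arrays. The siNEG medians mirror each other by construction, and gaps of opposite sign offset each other in them. Gene by gene, the siNEG arrays differed from 0.0047, for Atf3, to 0.505, for Trib3. For the ER members the median was 0.0031 and -0.0097 on the siGPR17 arrays and -0.095 and 0.095 on the siNEG arrays. Their siNEG arrays differed gene by gene from 0.027, for Hspa5, to 0.230, for Xbp1.

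The rest of the pathway was followed in 9 lists written from general knowledge. Over all lists, 0 of 129 tested genes were called, and 15 were higher and 8 lower at an unadjusted p under 0.05 in limma, or 53 above and 24 below without overlap. Over all tested genes, the background for the counts of each list, the shares were 7.43% higher and 8.73% lower at that p, 28.1% above and 25.3% below without overlap, and 52% with a higher fitted value. For the aminoacyl-tRNA synthetases of the cytosol, which load amino acids on tRNA and are ATF4 targets, 11 of 12 had a higher fitted value in siGPR17 OPCs, with a median of 0.16. The arrays did not overlap in 10 of these 12, 9 above and 1 below, and 4 genes were higher and 0 lower at an unadjusted p under 0.05, where 28.1% of all tested genes were above, 25.3% below and 7.43% higher at that p. Iars1, for isoleucine, was highest among them, with signals of 8998 and 9812 in siNEG and of 12877 and 12885 in siGPR17 OPCs and a log2 fold change of 0.46 (SE 0.09, limma adjusted p = 0.213). Aars1, for alanine, was the exception, at -0.16 (SE 0.10, limma adjusted p = 0.483). Without siNEG replicate 1, 9 of the 12 were higher and the median was 0.099. Of the 11 synthetase promoters in the table, 7 hold CARE letters, those of Aars1, Cars1, Iars1, Mars1, Nars1, Tars1 and Yars1, against 3.97% of all promoters. Aars1, the exception in direction, is thus among these 7. For the list of amino acid synthesis and transport, 3 of 14 promoters hold CARE. The list of other ATF4 and CHOP targets has CARE in 3 of 16. Whether the letters go with the changes was not tested.

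For amino acid synthesis and transport, 12 of 16 tested genes had a higher fitted value, with a median of 0.12, and 9 were above without overlap and 1 below, against 28.1% and 25.3% of all tested genes. Without siNEG replicate 1 the median was 0.07, with 10 of 16 higher, and without siNEG replicate 2 it was 0.199, with 15 of 16 higher. Slc7a3, a transporter of cationic amino acids, had the largest log2 fold change of any gene in the 9 lists. Its signals were 2276 and 2541 in siNEG and 4719 and 4808 in siGPR17 OPCs, with a log2 fold change of 0.99 (SE 0.10, limma adjusted p = 0.209), a fold of 1.98. Slc7a3 passed the thresholds with normexp background correction (adjusted p = 0.0153) and with the trend and robust option (adjusted p = 0.0132), and its adjusted p from limma reached 0.665 without siGPR17 replicate 1. Slc7a11, the cystine transporter that feeds glutathione, had a log2 fold change of 0.50 (SE 0.12, limma adjusted p = 0.225). The glycine transporter gene Slc6a9 was lowest, at -0.23 (SE 0.12, limma adjusted p = 0.392). Psat1 and Phgdh, the serine synthesis enzymes that ATF4 also controls, had log2 fold changes of -0.03 and 0.15.

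The 15 tested genes among other ATF4 and CHOP targets went both ways, with a median of 0.03, 5 above without overlap and 4 below, against 28.1% and 25.3% of all tested genes. The median was -0.06, with 7 of 15 higher, where the probes of a gene were averaged, and 0.10 without siNEG replicate 2. Cth, an enzyme that makes cysteine, was highest at 0.67 (SE 0.29, limma adjusted p = 0.342), with signals of 11.6 and 19.9 in siNEG and of 23.1 and 25.3 in siGPR17 OPCs, and it was well above background on 3 of the 4 arrays. Its log2 fold change was 0.17 with normexp background correction, 0.28 when siNEG replicate 1 was left out and 1.06 when siNEG replicate 2 was. Bbc3, the gene of the cell death protein PUMA, was lowest at -0.41 (SE 0.12, limma adjusted p = 0.261). Eif4ebp1, far brighter than Cth, rose from signals of 3371 and 3912 on the siNEG arrays to 5344 and 5591 after silencing. The change was 0.59 on the log2 scale (SE 0.11, limma adjusted p = 0.210), a fold of 1.51. At an unadjusted p under 0.05 in limma, Eif4ebp1 was the 1 gene higher and Bbc3 the 1 gene lower. With the trend and robust option, 1 of the 15 genes passed the thresholds. Stc2, Pmaip1 and Adm2 were not well above background on any array. Among 11 genes of eIF2alpha kinases, its other phosphatase subunit and eIF2B, 8 had a higher fitted value, with a median of 0.08, which was 0.0079 with 6 higher when siNEG replicate 1 was left out and 0.13 when siNEG replicate 2 was. The eIF2B subunit Eif2b3 was highest at 0.35 (SE 0.09, limma adjusted p = 0.234). Eif2ak3, which encodes PERK, was lowest, with signals of 648 and 663 in siNEG and of 539 and 527 in siGPR17 OPCs and a log2 fold change of -0.30 (SE 0.09, limma adjusted p = 0.25). A dimmer probe of Eif2ak3 gave -0.04.

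On the side of the ER, 14 of 18 tested genes of the ATF6 and chaperone list had a lower fitted value, with a median of -0.05, and 5 were below without overlap and 4 above. None had an unadjusted p under 0.05 in limma, and the direction of the list turned with 1 array, since 11 of 18 were higher without siNEG replicate 2. With spike-in scaling 13 of 18 were higher, with a median of 0.08, but this scaling moved all genes upward alike, and the median over all tested genes was then 0.14. Pdia4, a disulfide isomerase of the ER, was lowest at -0.22 (SE 0.10, limma adjusted p = 0.346), and P4hb, another isomerase, was highest at 0.16 (SE 0.09, limma adjusted p = 0.417). Hsp90b1, the ER form of Hsp90, and Calr, calreticulin, had log2 fold changes of -0.04 and -0.02. Of 16 promoters of this list in the table, 5 hold ERSE and 2 ERSE-II letters. Among 24 tested genes of IRE1, ER-associated degradation and the translocon, the fitted value was higher in 11 and lower in 13, the median was -0.01, and 1 gene was higher and 4 lower at an unadjusted p under 0.05 in limma, against 7.43% and 8.73% of all tested genes. This list turned with 1 array as well, with 17 of 24 higher and a median of 0.09 without siNEG replicate 2, 14 of 24 and 0.02 without siGPR17 replicate 2, and 7 of 24 and -0.07 without siNEG replicate 1. With spike-in scaling, which moved all genes, 19 of 24 were higher, with a median of 0.12. Edem1, which helps to pull misfolded glycoproteins out of the ER, was lowest, with signals of 6329 and 6393 in siNEG and of 4857 and 4176 in siGPR17 OPCs and a log2 fold change of -0.50 (SE 0.11, limma adjusted p = 0.217). Dimmer probes of Edem1 gave -0.25 and -0.21. Spcs3, a subunit of the signal peptidase, was highest at 0.34 (SE 0.10, limma adjusted p = 0.261).

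**Figure D3:**
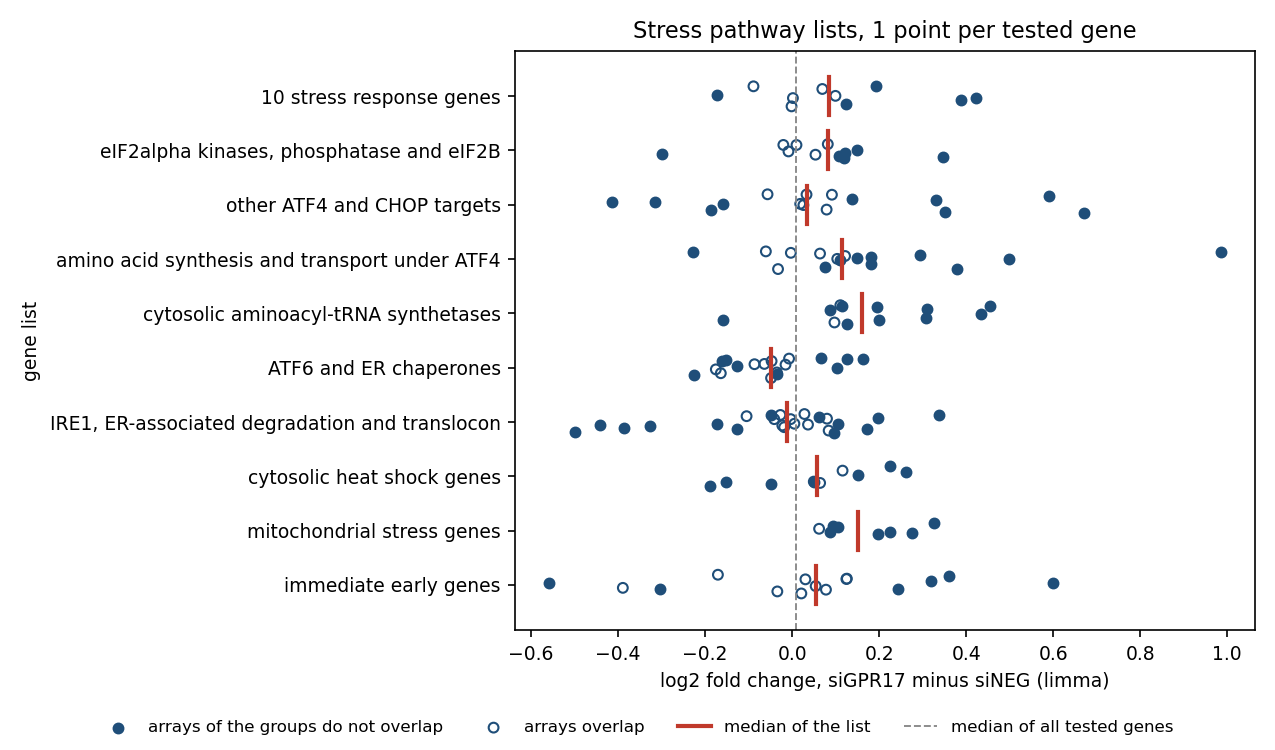
Log2 fold change of each tested gene (siGPR17 minus siNEG, limma) in the 10 genes and in the 9 other lists, filled where siGPR17 and siNEG arrays were separate, with the median of each list in red and that of all tested genes dashed. The lists of aminoacyl-tRNA synthetases and of mitochondrial stress genes lie mostly right of the dashed line, the ER lists lie around it, and Slc7a3 is the single point near 1.

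Other stress programs were compared in the same way. All 8 tested genes of mitochondrial protein quality control and stress signaling had a higher fitted value, with a median of 0.15 and 7 of 8 above without overlap, against 28.1% of all tested genes, and without siNEG replicate 1 the fitted value was higher in 7 of the 8. The protease gene Lonp1 was highest at 0.32 (SE 0.09, limma adjusted p = 0.237) and Dele1, which relays mitochondrial stress to eIF2alpha, lowest among those without overlap at 0.09 (SE 0.09, limma adjusted p = 0.665). In the cytosolic heat shock list, 7 of 10 were higher, with a median of 0.06, from -0.19 for Hspa4 to 0.26 for Hsp90ab1 (limma adjusted p = 0.381 and 0.433), and a dimmer probe of Hsp90ab1 gave 0.08. The median of this list lay between 0.03, without siNEG replicate 1, and 0.11, without siGPR17 replicate 2. Atf3 was also set beside 15 immediate early genes, whose median was 0.05, with a higher fitted value in 10 and a lower one in 5, and this median was 0.0038 without siNEG replicate 2, 0.02 without siGPR17 replicate 2, 0.11 without siNEG replicate 1 and 0.12 without siGPR17 replicate 1. Without overlap, 4 of these 15 were above and 2 below, against 28.1% and 25.3% of all tested genes. At an unadjusted p under 0.05 in limma 3 were higher and 2 lower, against 7.43% and 8.73%. Egr1 was highest at 0.60 (SE 0.14, limma adjusted p = 0.217) and Nr4a1 lowest at -0.56 (SE 0.12, limma adjusted p = 0.213), while Fos and Jun had log2 fold changes of 0.05 and 0.08. Egr1 passed the thresholds with the trend and robust option of limma (adjusted p = 0.0687).

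All 8 markers of the oligodendrocyte lineage were well above background on all 4 arrays, but so were all 5 astrocyte and all 5 neuronal markers. The lineages differed in summed signal, which was 453433 to 523115 per array for the oligodendrocyte markers. It was 5896 to 8101 for the astrocyte markers and 6299.8 to 8010.1 for the neuronal ones, though these sums are over different probes. Summed signals of astrocyte, neuronal and endothelial markers did not overlap between the groups. The 5 astrocyte markers, all measured on all arrays, summed to 7488 and 8101 in siNEG and to 5994 and 5896 in siGPR17 OPCs, but Slc1a3 alone gave 6967 and 7592 of this in siNEG and 5672 and 5545 in siGPR17 OPCs. By gene, Aqp4, Gfap and Slc1a3 had log2 fold changes of -1.35, -0.61 and -0.37 without overlap, and Aldh1l1 and Gja1 of 0.27 and 0.33 with overlap (limma adjusted p from 0.209 to 0.588). The 5 endothelial markers summed to 313 and 344 in siNEG and to 490.1 and 496 in siGPR17 OPCs, with Pecam1 and Cldn5 not well above background on any array. The 7 microglial markers summed to 1756 to 3252 in siNEG and to 1871 to 2374 in siGPR17 OPCs, with Csf1r not well above background. Cx3cr1 alone gave 2512 and 1241 of this in siNEG and 1338 and 1884 in siGPR17 OPCs. By gene, all 6 tested microglial markers had a lower fitted value. Aif1 and P2ry12 had log2 fold changes of -0.56 and -0.32 without overlap (limma adjusted p = 0.216 and 0.269), and the other 4 overlapped. The 5 neuronal markers summed to 6717 and 8010.1 in siNEG and to 6567 and 6299.8 in siGPR17 OPCs. Of the 5 fibroblast and mural markers, 4 were not well above background on any array. The part of other cells in the values of the 10 genes was not tested.

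**Figure D4:**
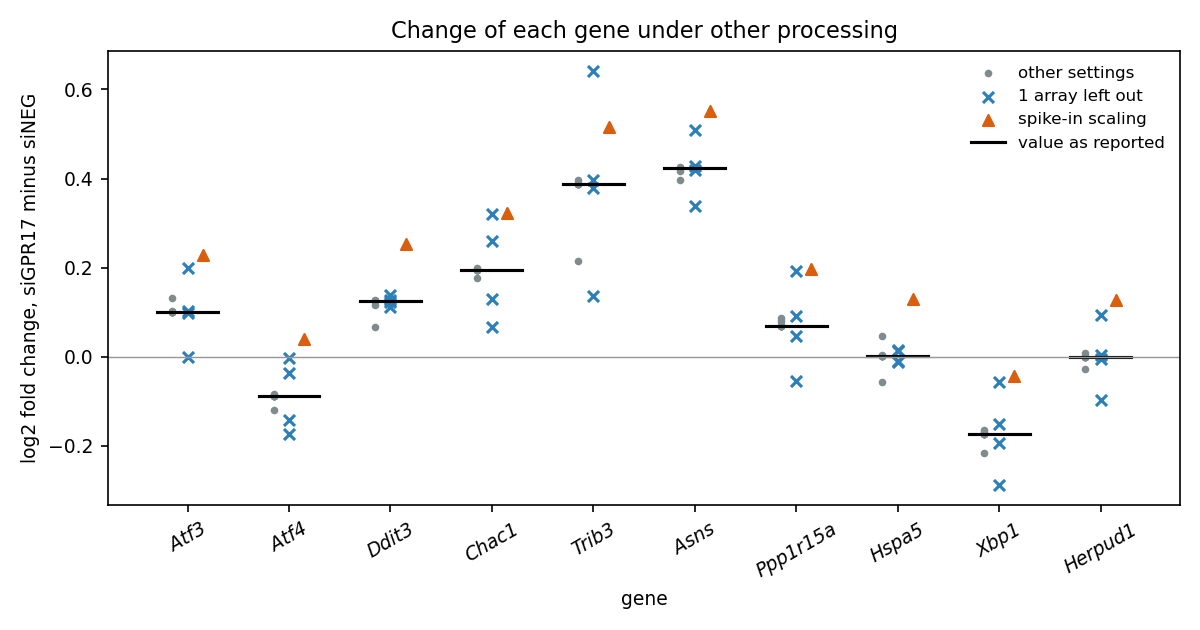
Log2 fold change of each gene (siGPR17 minus siNEG) as reported (black bar), with 1 array left out (crosses), with spike-in scaling (triangles) and under the other settings (dots). Asns, Trib3, Chac1, Ddit3 and Atf3 stay above 0 and Xbp1 below it throughout, and the points of Atf4, Ppp1r15a, Hspa5 and Herpud1 fall on both sides.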

How the data were processed

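The authors deposited 1 Agilent Feature Extraction file (version 10.7.3.1) per array, whose intensities per spot are corrected for background and spatial trends and not normalized between arrays. The build named in the file headers belongs to the array design and was not used. Here control and outlier-flagged spots were left out, log2 intensities of spots of a probe were averaged, and the 75th percentile of each array was subtracted. Of 45598 non-control probes, 45565 had a value on all arrays, and the 28016 well above background on at least 2 arrays were tested in R 4.3.3 with the linear models and moderated statistics of limma 3.58.1. A gene with several probes was represented by the brightest. Probes were named by transcript accession through a RefSeq table of GRCr8 (21093 probes with a symbol), used for names and promoters only. Printed signals are on the linear scale. The number of arrays limits the precision.

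The 10 genes and the lists were chosen with earlier results of these data known. From each list, the genes with the highest and lowest log2 fold change among those without overlap between groups are named, and others named were chosen after their values were seen. Alternatives were normexp (offset 50, on spot medians), 3 other scalings, 2 filters on dim probes, a floor, trend and robust eBayes, the methods' t-test, the replicate number as a block, each array left out, and the mean of a gene's probes. The code was tested on simulated data.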

Additional observations from a re-analysis of the deposited data

How the results depend on the processing

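Under 15 alternatives, 0 of the 10 genes passed the thresholds in any, and of 150 values of single genes 140 kept their direction. The filters on dim probes, the floor, trend and robust eBayes, the t-test, the replicate block and the probe mean left each log2 fold change unchanged. Those values could not turn, so the 140 overstates how stable the directions were. With normexp 112 of all 11656 tested genes passed and with the trend and robust option 184, against 0 as reported. Under every other alternative 0 genes passed, so that none of the 10 could pass there. Spike-in scaling moved the median of all tested genes from 0.0099 to 0.14 and that of the 10 genes to 0.21, and it turned Atf4 to 0.040 and Herpud1 to 0.13, both under the shift of all genes. Quantile normalization turned Hspa5 to -0.056 and Herpud1 to 0.0095, and median centring over the probes measured on all arrays turned Herpud1 to 0.0013. With 1 array left out, where the lone array is assumed to vary like the other group, the median of the 10 genes lay between 0.030, without siGPR17 replicate 2, and 0.12, without siGPR17 replicate 1, that of Ppp1r15a between -0.055 and 0.19, that of Hspa5 between -0.012 and 0.015 and that of Herpud1 between -0.096 and 0.094. The causes were not tested. The replicate numbers were not taken as pairs, since nothing ties them to shared cultures and the deviations of same-numbered arrays correlated at -0.065 across probes. With the replicate block, 0 genes and 0 of the 10 passed, as without it, and the median of the 10 genes was 0.08. Trib3 was well above background on all 4 arrays and above the floor, so the filters on dim probes and the floor could not move its log2 fold change of 0.39. It did move with the siNEG array left out and with normexp, as given above.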
